A study of Mus musculus with 96 samples.

Results

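The DNA damage signalling and repair genes described here are 43 genes chosen by function, and all 43 were found among the 15895 genes of the expression table. They comprise 16 genes of recombination, 7 Fanconi anaemia genes, 2 mismatch repair genes, 6 damage signalling genes, 4 genes of end joining, 4 of base excision repair and 4 of nucleotide excision repair. RNA-seq was performed on primary mouse embryonic fibroblasts (MEFs) prepared from CF-1 mice on day 13 of gestation. The cells were held in 0.5% foetal calf serum for 36 h, which stops most of them from dividing, and serum was then raised to 20% to set them growing again. Libraries came from a pair of time courses, named Cycle 1 (63 libraries) and Cycle 2 (32 libraries), and the starved group held the libraries of 1 h before serum and of 0 h of both Cycles, 4 in all. Each later time was sampled at most once in a Cycle and 29 later times were sampled in both, so neighbouring times were summarised in windows. The labels name no DNA damaging agent in any group, and return of serum does not bring every cell through the cycle together. In RNA from whole cultures, fewer cells that express a gene and less of its RNA per cell cannot be told apart.

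Cells repair DNA by several routes that depend on the lesion and on the stage of the cell cycle. Broken ends can be copied from the sister chromatid by homologous recombination, which needs a replicated chromosome, or joined directly by end joining, which does not. Fanconi anaemia proteins deal with crosslinked strands at replication forks, the kinases ATM and ATR signal breaks and stalled forks, and mismatch and excision repair replace wrong or damaged bases.

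The libraries held between 4352236 and 12551890 reads in listed genes (median 9375098), and the deposited values are read counts scaled to a common library total, called normalized counts here. For 9 members the values have more decimals than those of the other members, and how these were made is not given in the sources used here. The fibroblast label was checked on 10 fixed markers, whose summed level lay between 189000 and 546600 normalized counts in every library. The summed levels of 7 macrophage, 6 endothelial, 6 epithelial, 4 muscle and 5 neural markers stayed between 39.0 and 2542 normalized counts, and the 1 listed erythroid and 1 listed pluripotency marker stayed below 10. In starved libraries the macrophage sum was 401 and 447 in Cycle 1 and 703 and 728 in Cycle 2. The muscle sum was 961 and 1126 in Cycle 1 and 1934 and 1951 in Cycle 2, and the epithelial sum 319 and 346 in Cycle 1 and 110 and 116 in Cycle 2. Their part in the differences between the Cycles was not tested.

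Promoter windows from 250 bases before to 50 bases after the annotated start were taken from RefSeq on GRCm38.p6 for the 34 members that matched by symbol. They were searched on both strands for the strings TTTCCCGC, TTTGGCGC, TTTCGCGC and TTTGCCGC, forms of the site of E2F, a factor known to act on genes of DNA synthesis. Of the 15 matched members that rose from 4 to 10 h to 15 to 18 h, 5 held such a string (33.3%), against 3 of the 19 other matched members (15.8%) and 4.3% of the 12318 matched genes of the table. Such a string was also in 12 of 27 matched genes of a fixed replication list (44.4%) and in 1 of 22 of a fixed mitosis list (4.55%). The windows of the 5 members that rose and held a match are shown as examples. The other matched members that rose, among them Brca1, Brip1 and Rad51ap1, held none, and Msh6, Topbp1 and Xrcc6 held one without being called in that step. Matched letters are in capitals, and each window is read 5′ to 3′ along the gene. The window of Ercc1, which took another course and held no match, comes last. Rad51c has a pair of annotated windows, both with a match, and the first listed is given.
Clspn, chr4:126556730-126557029, plus strand: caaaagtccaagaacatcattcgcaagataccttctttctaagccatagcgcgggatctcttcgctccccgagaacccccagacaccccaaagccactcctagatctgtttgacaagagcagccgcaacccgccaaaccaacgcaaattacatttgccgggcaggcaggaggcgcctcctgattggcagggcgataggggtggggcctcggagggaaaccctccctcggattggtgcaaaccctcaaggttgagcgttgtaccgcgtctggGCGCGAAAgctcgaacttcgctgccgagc
Bard1, chr1:71102923-71103222, minus strand: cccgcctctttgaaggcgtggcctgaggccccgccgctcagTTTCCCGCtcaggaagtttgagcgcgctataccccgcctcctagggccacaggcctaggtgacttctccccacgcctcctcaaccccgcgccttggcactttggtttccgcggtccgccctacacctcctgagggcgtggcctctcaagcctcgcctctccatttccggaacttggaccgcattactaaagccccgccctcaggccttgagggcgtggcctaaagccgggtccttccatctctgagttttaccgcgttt
Brca2, chr5:150522371-150522670, plus strand: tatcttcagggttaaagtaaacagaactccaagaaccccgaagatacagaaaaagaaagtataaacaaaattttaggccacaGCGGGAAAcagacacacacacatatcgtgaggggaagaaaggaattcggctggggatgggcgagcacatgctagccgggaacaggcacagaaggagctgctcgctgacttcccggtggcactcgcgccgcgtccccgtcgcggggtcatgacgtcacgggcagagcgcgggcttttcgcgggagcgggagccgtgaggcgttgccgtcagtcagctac
Rad51c, chr11:87404457-87404756, minus strand: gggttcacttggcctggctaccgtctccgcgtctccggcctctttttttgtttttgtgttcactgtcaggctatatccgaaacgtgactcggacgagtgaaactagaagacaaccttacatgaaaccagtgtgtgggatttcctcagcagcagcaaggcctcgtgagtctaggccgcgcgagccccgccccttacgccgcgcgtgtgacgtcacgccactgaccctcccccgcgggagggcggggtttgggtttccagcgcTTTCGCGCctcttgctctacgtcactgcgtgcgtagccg
Chek2, chr5:110839733-110840032, plus strand: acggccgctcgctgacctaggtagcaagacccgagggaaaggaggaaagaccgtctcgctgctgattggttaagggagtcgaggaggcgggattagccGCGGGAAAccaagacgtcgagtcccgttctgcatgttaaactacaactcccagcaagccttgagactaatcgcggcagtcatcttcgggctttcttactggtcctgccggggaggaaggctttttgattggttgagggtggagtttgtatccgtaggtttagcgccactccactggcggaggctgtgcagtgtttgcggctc
Ercc1, chr7:19344821-19345120, plus strand: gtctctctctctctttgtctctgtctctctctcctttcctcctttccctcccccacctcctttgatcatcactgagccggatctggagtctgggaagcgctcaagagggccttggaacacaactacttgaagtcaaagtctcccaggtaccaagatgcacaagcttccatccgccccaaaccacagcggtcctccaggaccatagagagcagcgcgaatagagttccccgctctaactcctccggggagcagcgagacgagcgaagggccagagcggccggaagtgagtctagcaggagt

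In Clspn the match began 21 bases after the start and in Rad51c 11 bases after it. It lay before the start in the other members, by 209 bases in Bard1, 168 in Brca2 and 152 in Chek2. The string CCAAT, on either strand, was in the windows of 12 of the 15 members that rose (80%), of 11 of the 19 others (57.9%) and of 42% of the matched genes of the table. It was also in 18 of 27 replication genes (66.7%) and 18 of 22 mitosis genes (81.8%), so it was not particular to the members. The string TTTGAA, known as the CHR element of mitotic promoters, was in 1 of the 34 members (2.94%), Bard1, against 14.6% of matched genes and 16 of 22 genes of a fixed mitosis list (72.7%). The strings were counted separately and could overlap, and a match describes letters only.

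Of the 43 repair genes, 14 were lower than in starved cells at 1 to 3 h of serum and 9 at 4 to 10 h, and 19 rose from 4 to 10 h to 15 to 18 h. Differences between windows were taken on the log2(value + 1) scale with limma, with the Cycle as a term and the hours shared by both Cycles as samples. Neighbouring hours of the same course entered as independent samples. The standard errors and p-values of these differences therefore do not fully measure the spread between whole courses. A gene was called when its Benjamini-Hochberg adjusted p over all 15895 genes was below 0.05 and its log2 difference exceeded 1 in size. At 1 to 3 h the 14 lower members were 32.6% of the 43, where 11.8% of all genes were lower, and none was higher, where 5.3% of all genes were. Without the minimum of the difference 34 members were lower at 1 to 3 h, where 39.2% of all genes were. At 4 to 10 h, 9 members were lower, which is 20.9% of the members and near the 17.9% of all genes, and 1 was higher (7.28% of all genes), namely Ercc1. The median log2 difference of the members was -0.74 at 1 to 3 h and -0.54 at 4 to 10 h, against -0.26 and -0.21 over all genes. The count at 1 to 3 h depended on scaling, since TMM scaling moved the median of all genes by 0.22 and left 5 members lower. Median centring and edgeR also left 5, and the shares of all genes under these settings are not given here. At 1 to 3 h the median log2 difference was -0.51 for the members and -0.041 for all genes with TMM. With median centring it was -0.56 and -0.079.

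From 4 to 10 h to 15 to 18 h, 19 of the 43 members rose, where 4.3% of all genes did, and none fell, where 5.44% of all genes did. Without the minimum of the difference 38 members rose, where 30.5% of all genes did. The median log2 difference was 0.83 for the members and 0.07 for all genes. The 19 were 12 of the 16 recombination genes, 4 of the 7 Fanconi genes and 3 of the 6 signalling genes, with none of the mismatch, end joining or excision repair genes. In 33 members every library of 15 to 18 h in Cycle 1 lay above every library of 4 to 10 h (14.2% of all genes), in 35 this held in Cycle 2 (12.9% of all genes), and in 32 it held in both (8.14% of all genes). With Cycle 2 alone 8 members passed (2.37% of all genes), namely Brca1, Brca2, Brip1, Rad51ap1, Rad51c, Rad54b, Exo1 and Clspn.

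**Figure D1:**
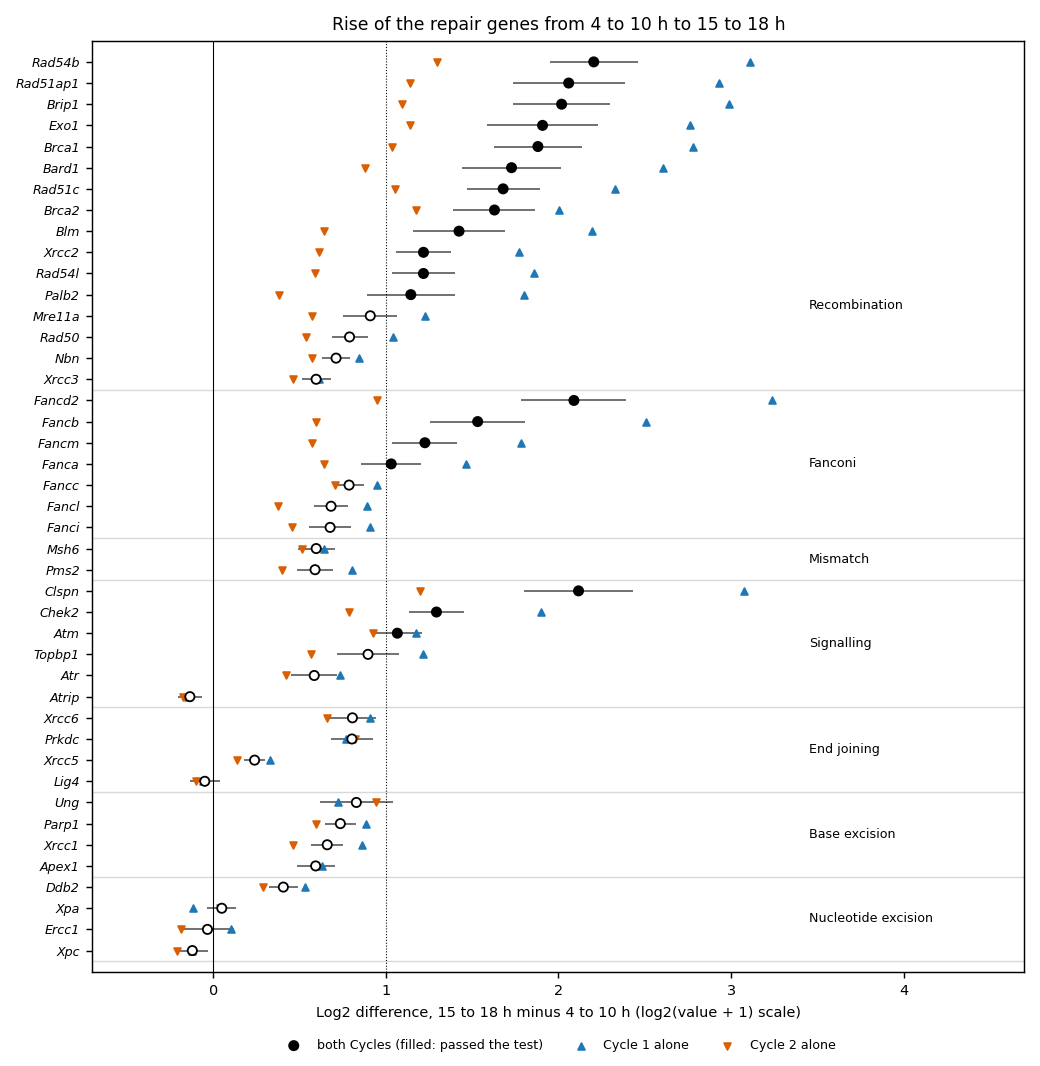
Log2 difference of each of the 43 repair genes between 15 to 18 h and 4 to 10 h after serum, on the log2(value + 1) scale, grouped by function. Circles with bars give the fit over both Cycles with its standard error, filled for the 19 genes called, and triangles give each Cycle alone; the called genes are all of recombination, Fanconi or signalling function, and each of them rose more in Cycle 1 than in Cycle 2.

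Against starved cells, few members were higher after the rise. At 11 to 14 h, 4 members were higher (6.97% of all genes), namely Ercc1, Ung, Exo1 and Clspn, and none was lower (16.5% of all genes). At 15 to 18 h, 6 members were higher, where 6.93% of all genes were, and none was lower, where 16.8% were. These were Exo1, Ercc1, Clspn, Ung, Rad51ap1 and Blm. At 19 to 23 h, 5 members were higher (6.99% of all genes) and none was lower (18.4%), and at 24 to 27 h, 4 were higher (6.42%) and none was lower (19.2%). The 5 were Exo1, Ercc1, Clspn, Rad51ap1 and Palb2, and the 4 were the same without Rad51ap1. Over all windows 7 members were called higher at least once (13.5% of all genes) and 16 lower at least once (31.6%). Of these 3 were called in both directions at different times (1.01% of all genes), and 23 members were called in no window against starved (55.9%). From 15 to 18 h to 19 to 23 h no member was called higher (0.0189% of all genes) or lower (0.0944%), nor did any pass without the minimum of the difference (0.44% of all genes higher and 1.13% lower). All windows were compared with the same 4 starved libraries.

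**Figure D2:**
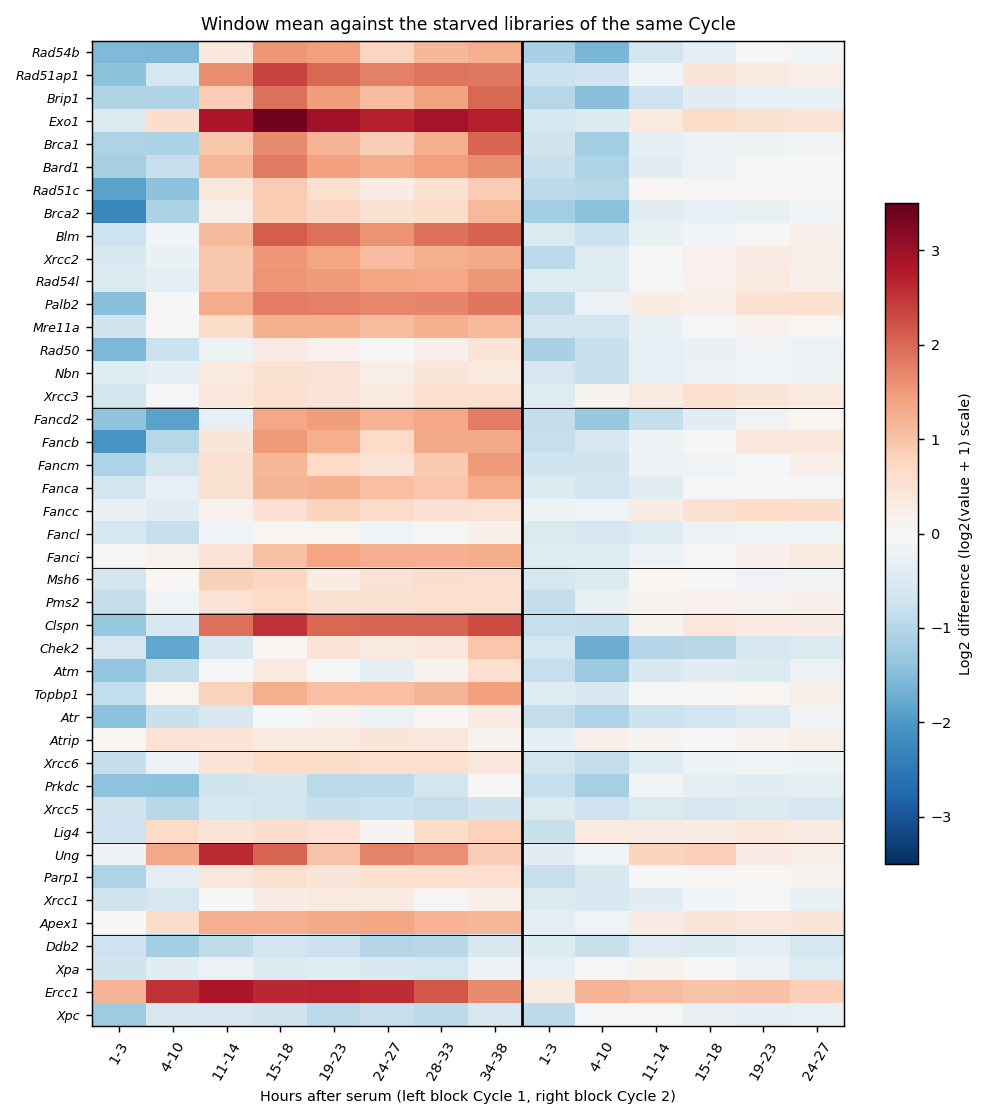
Mean log2(value + 1) of each repair gene in each window minus the starved mean of its own Cycle, with genes in rows by function, windows in columns and red for higher. At 1 to 3 h most genes are blue in both Cycles, whereas the later red cells, from 11 to 14 h onward, are far stronger in Cycle 1. Ercc1 is above its starved level in both from 1 to 3 h on, by 1.20 in Cycle 1 and 0.33 in Cycle 2 in that window.

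The starved cells of the Cycles did not begin at the same level. In the starved libraries 10 members were higher in Cycle 2 than in Cycle 1 (4.39% of all genes) and none was lower (6% of all genes), by limma on windows and Cycles, a comparison added after the values were seen. These were Exo1, Blm, Brip1, Clspn, Rad51ap1, Brca1, Rad54b, Fancd2, Bard1 and Ercc1. Brca1, which opens recombination at broken ends, had 141 and 136 normalized counts in the starved libraries of Cycle 1 and 347 and 340 in those of Cycle 2, and the groups did not overlap. Its log2 difference was 1.30 ± 0.41 (SE, adjusted p = 0.0169). Genes of cell division differed the same way, since all 24 genes of a fixed mitosis list and 18 of 36 replication genes were higher in starved Cycle 2. The starved libraries of a Cycle were taken 1 h apart, and no source names them as separate cultures. These p-values rest on the spread of libraries within windows, pooled over all windows of both Cycles, and not on a spread between cultures.

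The difference from starved cells at 15 to 18 h also differed between the Cycles. At that time 21 members were higher than starved with Cycle 1 alone (11.1% of all genes) and 1, Ercc1, with Cycle 2 alone (4.06% of all genes). The effect at 15 to 18 h differed between the Cycles in 21 members, where it did in 9.42% of all genes, and was smaller in Cycle 2 in each of the 21. It differed in 2 members at 4 to 10 h (6.27% of all genes), 9 at 11 to 14 h (8.21%), 17 at 19 to 23 h (9.34%) and 13 at 24 to 27 h (11%). The later levels differed in the other direction, since 40 members had a lower mean at 15 to 18 h in Cycle 2 (54.7% of all genes) and in 29 every library of Cycle 2 lay below every library of Cycle 1 (11.8% of all genes). The rise from 4 to 10 h also differed between the Cycles in 16 members, where it did in 2.42% of all genes, and was smaller in Cycle 2 in each of the 16. In Cycle 1 the median rise of the members was 1.04 on the log2 scale, and in Cycle 2 it was 0.59, with 38 members above 0 in both. In these fits of windows every library of a window stood as a sample, so their p-values do not measure the spread between courses. The Cycle and any difference between the cultures or their handling cannot be told apart.

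**Figure D3:**
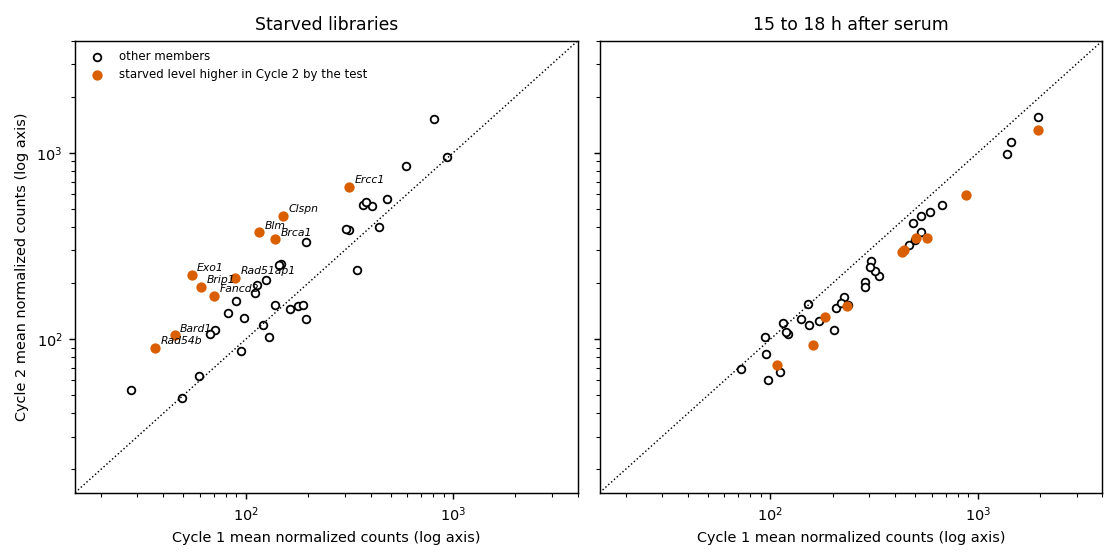
Mean normalized counts of the 43 repair genes in Cycle 2 against Cycle 1, on log axes, for the starved libraries on the left and for 15 to 18 h on the right, with a dotted line of equal levels. The 10 genes in orange had the higher starved level in Cycle 2 by the test and lie above the line on the left; on the right 40 of the 43 genes lie below it.

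Among the recombination genes, Rad54b, a motor protein that remodels chromatin during strand exchange, had the largest rise. It had 36.8 and 36.0 normalized counts in the starved libraries of Cycle 1 and 92.0 and 88.2 in those of Cycle 2. At 4 to 10 h the lowest, median and highest values were 7.45, 10.6 and 20.9 in Cycle 1 (13 libraries) and 17.8, 31.5 and 37.1 in Cycle 2 (7 libraries). At 15 to 18 h they were 93.8, 106 and 124 in Cycle 1 (7 libraries), and the 4 libraries of Cycle 2 gave 72.2, 72.4, 75.9 and 70.6. The windows did not overlap in either Cycle. At 15 to 18 h Cycle 2 was still below its starved level, whereas Cycle 1 had passed it. At 19 to 23 h the mean of Cycle 2 was 92.7, against a starved mean of 90.1. The rise from 4 to 10 h to 15 to 18 h was 2.20 ± 0.25 on the log2 scale (SE, adjusted p = 1.1e-08 by limma). It followed a fall of -1.60 ± 0.33 at 4 to 10 h against starved (adjusted p = 7.27e-05 by limma). Rad54b is among the 9 members whose values have more decimals, and its symbol has 2 annotated loci.

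Brip1, a helicase that binds Brca1, had 57.1 and 64.7 normalized counts in starved Cycle 1 and 199 and 183 in starved Cycle 2. At 4 to 10 h it had 15.4, 28.1 and 62.6 (lowest, median, highest) in Cycle 1 and 55.8, 66.6 and 81.5 in Cycle 2. At 15 to 18 h it had 215, 230 and 266 in Cycle 1 and 165, 129, 179 and 129 in the libraries of Cycle 2. Its windows were apart in both Cycles, and the rise was 2.02 ± 0.28 on the log2 scale (adjusted p = 3.45e-07). Rad51ap1, a recombination factor, had 122 and 56.5 normalized counts in starved Cycle 1 and 205 and 221 in starved Cycle 2. It had 404, 430 and 458 at 15 to 18 h in Cycle 1 and 247, 313, 295 and 316 in Cycle 2, all above the starved values of the same Cycle. Against 4 to 10 h its rise was 2.06 ± 0.32 (adjusted p = 2.83e-06), and against starved it was 1.40 ± 0.45 (adjusted p = 0.00768), a call that was lost without the 0 h library of Cycle 1 (log2 difference 1.07).

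Exo1, a nuclease of recombination and mismatch repair, had the largest rise above the starved level. It had 46.6 and 62.9 normalized counts in starved Cycle 1 and 249 and 194 in starved Cycle 2. At 15 to 18 h it had 530, 575 and 610 in Cycle 1 and 358, 318, 372 and 352 in Cycle 2. These values were above the starved values in both Cycles, and the log2 difference was 2.02 ± 0.45 (adjusted p = 0.000239), or 3.38 in Cycle 1 and 0.67 in Cycle 2. Blm, a helicase that resolves recombination intermediates, rose from 4 to 10 h by 1.42 ± 0.27 (adjusted p = 4.15e-05), and its call against starved (1.01 ± 0.37, adjusted p = 0.0191) did not hold in Cycle 2 alone, where the difference was -0.10. Brca2, a mediator of homologous recombination, had the deepest early fall, from 110 and 112 normalized counts in starved Cycle 1 to 67.8, 35.9, 21.8, 9.66 and 9.36 in the libraries of 1 to 3 h. In Cycle 2 it went from 183 and 171 to 142, 128, 69.1, 42.9 and 50.0. Every early library lay below the starved ones, and the log2 difference was -1.74 ± 0.32 (adjusted p = 2.13e-05).

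The other recombination genes that rose from 4 to 10 h were Brca1 (1.88), Bard1 (1.73), Rad51c (1.68), Xrcc2 (1.22), Rad54l (1.22) and Palb2 (1.14), all on the log2 scale. Bard1 is the partner of Brca1 in a ubiquitin ligase, Palb2 ties Brca1 to Brca2, and Rad51c and Xrcc2 act in homologous recombination. Of the 4 that were not called, Mre11a (0.91), Rad50 (0.79) and Nbn (0.71) encode the complex that first binds broken ends. Rad50 nevertheless fell at 1 to 3 h, by 1.35 on the log2 scale (adjusted p = 6.62e-10). Xrcc3, which also acts in homologous recombination, had a difference of 0.60 ± 0.08 (adjusted p = 4.44e-07) between these windows, the smallest of the group in this step, and did not reach the minimum of 1.

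**Figure D4:**
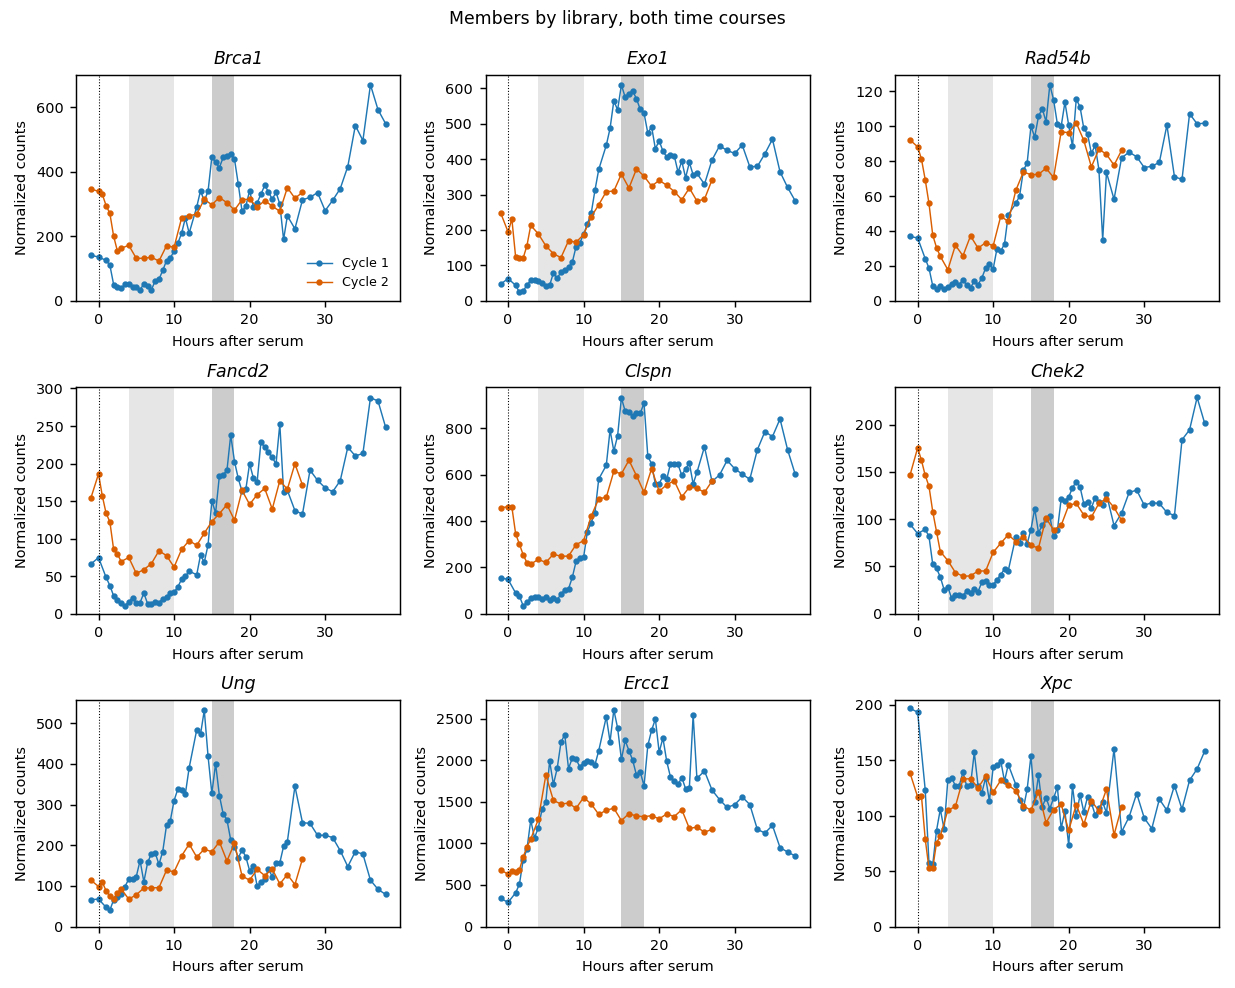
Normalized counts of 9 repair genes in every library against hours after serum, Cycle 1 in blue and Cycle 2 in orange, with a dotted line at serum and shaded bands at 4 to 10 h and 15 to 18 h. Brca1, Exo1, Rad54b, Fancd2, Clspn and Chek2 lie higher in the second band than in the first in both Cycles and start from different starved levels, Ung has a peak before the second band in Cycle 1, Ercc1 climbs within hours and stays high, and Xpc has its lowest values within the first hours and stays under its starved level in Cycle 1.

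Of the Fanconi anaemia genes, Fancd2, the protein that is ubiquitinated at crosslinks, had the largest rise from 4 to 10 h. It had 66.1 and 74.8 normalized counts in starved Cycle 1 and 154 and 186 in starved Cycle 2. At 4 to 10 h it had 12.8, 15.5 and 28.3 in Cycle 1 and 53.6, 66.7 and 83.8 in Cycle 2, and at 15 to 18 h 134, 185 and 238 in Cycle 1 and 123, 133, 145 and 124 in Cycle 2. The windows were apart in both Cycles, with a rise of 2.09 ± 0.30 on the log2 scale (adjusted p = 8.01e-07), and this rise differed most between the Cycles, being 3.24 in Cycle 1 and 0.95 in Cycle 2 (adjusted p of the difference 1.04e-10). Fancb, of the core complex, rose by 1.53 ± 0.28 (adjusted p = 2.27e-05) after falling at 1 to 3 h by 1.44 (adjusted p = 0.00137). Fancm, which recognises stalled forks, rose by 1.23 ± 0.19 (adjusted p = 2e-06), and Fanca, of the core complex, by 1.03 ± 0.17 (adjusted p = 8.35e-06), which fell under the minimum with TMM scaling (0.94). Fancl, the ligase of the pathway, had 0.68 ± 0.10 between the same windows and -0.76 at 4 to 10 h against starved, and was not called in any comparison. No Fanconi gene was called against starved from 11 to 14 h on.

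Of the signalling genes, Clspn, which hands the ATR signal to its effector kinase at forks, had the largest rise from 4 to 10 h. It had 155 and 148 normalized counts in starved Cycle 1 and 457 and 462 in starved Cycle 2. At 4 to 10 h it had 58.5, 83.0 and 244 in Cycle 1 and 221, 248 and 315 in Cycle 2, and at 15 to 18 h 851, 869 and 932 in Cycle 1 and 603, 662, 595 and 523 in Cycle 2. All libraries of 15 to 18 h lay above all starved libraries. The rise was 2.12 ± 0.31 against 4 to 10 h (adjusted p = 1.12e-06) and 1.46 ± 0.43 against starved (adjusted p = 0.00441).

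Chek2, the effector kinase of ATM, had the deepest fall at 4 to 10 h and did not pass its starved level by 18 h in Cycle 2. It had 94.7 and 84.8 normalized counts in starved Cycle 1 and 147 and 176 in starved Cycle 2, against 16.3, 24.4 and 35.0 at 4 to 10 h in Cycle 1 and 39.6, 45.2 and 64.9 in Cycle 2. At 15 to 18 h it had 81.8, 93.4 and 111 in Cycle 1 and 72.2, 69.5, 101 and 88.5 in Cycle 2, below both starved libraries of that Cycle. The fall was -1.78 ± 0.20 on the log2 scale (adjusted p = 3.22e-09), and the rise from 4 to 10 h was 1.29 ± 0.16 (adjusted p = 3e-08).

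The kinases Atm and Atr were both lower early. Atm fell at 1 to 3 h by 1.08 (adjusted p = 1.53e-05) and rose from 4 to 10 h by 1.07 ± 0.14 (adjusted p = 2.08e-07). Atr fell at 1 to 3 h by 1.13 (adjusted p = 1.95e-06), from 310 and 319 normalized counts in starved Cycle 1 to 183, 139, 92.1, 77.3 and 113, and from 400 and 372 in starved Cycle 2 to 285, 255, 200, 153 and 212. Its difference from 4 to 10 h to 15 to 18 h was 0.59 ± 0.13 and was not called. Atrip, the partner of Atr, had the smallest differences of the group, between -0.14 and 0.32 on the log2 scale, though 25.8% of its exon bases are shared with the overlapping gene Trex1. Topbp1, which activates Atr, had 0.90 ± 0.18 between the same windows and was not called.

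The 2 mismatch genes were never called. Msh6, a subunit of a mismatch sensor, had its largest difference at 1 to 3 h (-0.62 ± 0.14), and Pms2, of the endonuclease that follows it, did too (-0.85 ± 0.14). From 4 to 10 h to 15 to 18 h their differences were 0.60 and 0.59. Among the end joining genes, Prkdc, the DNA-dependent kinase, fell at 4 to 10 h by 1.28 on the log2 scale (adjusted p = 1.6e-08). It had 182 and 177 normalized counts in starved Cycle 1 and 144 and 157 in starved Cycle 2, and 27.4, 69.4 and 127 at 4 to 10 h in Cycle 1 and 42.0, 70.5 and 116 in Cycle 2. Xrcc5, a subunit of the Ku end binder, stayed below the starved level in every window, between -0.57 and -0.86 on the log2 scale, without reaching the minimum of 1. Xrcc6, its partner, had a difference of 0.25 at 15 to 18 h where Xrcc5 had -0.62. Lig4, the ligase of the pathway, had the smallest differences of the group, the largest being -0.76 at 1 to 3 h.

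Among the base excision genes, only Ung was called in any window. Ung, which removes uracil from DNA, had 66.1 and 67.5 normalized counts in starved Cycle 1 and 114 and 98.5 in starved Cycle 2. At 11 to 14 h it had 327, 432 and 532 in Cycle 1 and 174, 203, 171 and 190 in Cycle 2, all above the starved libraries, with a log2 difference of 1.73 ± 0.29 (adjusted p = 6.23e-06). By 19 to 23 h it had 99.1, 138 and 189 in Cycle 1 and 124, 114, 141, 125 and 141 in Cycle 2, and was no longer called against starved (0.61 ± 0.28, adjusted p = 0.0561). The difference from 15 to 18 h to 19 to 23 h, -0.80, was the largest decrease of any member in that step but was not called. Parp1, the sensor of nicks, and Xrcc1, a scaffold of repair, were never called, their largest differences being -0.95 at 1 to 3 h and 0.66 from 4 to 10 h to 15 to 18 h. Apex1 had 0.84 at 15 to 18 h against starved, but 61.7% of its exon bases are shared with Tmem55b and the counting did not use strand.

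Of the nucleotide excision genes, Ercc1, a subunit of the nuclease that cuts beside a lesion, was the only one of the 43 called higher at 4 to 10 h. It had 339 and 290 normalized counts in starved Cycle 1 and 684 and 628 in starved Cycle 2. The libraries of 1 to 3 h gave 406, 509, 802, 930 and 1280 in Cycle 1 and 650, 684, 836, 958 and 1052 in Cycle 2, in order of time. At 4 to 10 h it had 1186, 1919 and 2309 in Cycle 1 and 1289, 1484 and 1822 in Cycle 2, above the starved libraries throughout. The log2 difference against starved was 1.84 ± 0.20 at 4 to 10 h (adjusted p = 1.48e-09) and 1.65 ± 0.22 at 24 to 27 h (adjusted p = 7.21e-08), and -0.03 ± 0.16 from 4 to 10 h to 15 to 18 h (adjusted p = 0.874). Its effect at 4 to 10 h was larger in Cycle 1 (2.53) than in Cycle 2 (1.19, adjusted p of the difference 0.00043). Ercc1 is among the 9 members whose values have more decimals, and 3.41% of its exon bases are shared with Cd3eap.

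Xpc, which finds bulky lesions, fell at 1 to 3 h by 1.08 on the log2 scale (adjusted p = 7.09e-09). It had 197 and 193 normalized counts in starved Cycle 1 and 138 and 117 in starved Cycle 2, and 124, 57.8, 56.0, 86.5 and 106 in the 1 to 3 h libraries of Cycle 1 and 79.2, 52.5, 52.7, 75.7 and 81.5 in those of Cycle 2. Its difference from starved at 4 to 10 h was -0.57 in Cycle 1 and -0.05 in Cycle 2, and at 19 to 23 h it was -0.91 and -0.32. Its later libraries in Cycle 1, up to 38 h, all stayed below both starved ones. Xpa, a damage verifying factor, had the smallest differences, the largest being -0.49 at 1 to 3 h. Ddb2, the sensor of ultraviolet lesions, had -0.97 at 4 to 10 h and was not called.

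The hour of the highest level between 10 and 26 h was taken as the peak of the mean of 3 neighbouring hourly libraries. Later libraries of Cycle 1 were not searched. In that Cycle Brca1 and Fancm had higher means at 34 to 38 h than in any earlier window, whereas Exo1 and Rad54b did not. In Cycle 1 the 19 members that rose peaked between 15 and 23 h with a median of 17 h. The medians of the replication list (36 genes) and the mitosis list (24 genes) were 15.5 h and 22 h. The 19 were chosen as higher at 15 to 18 h than at 4 to 10 h in these same libraries, so their peak hours partly follow from that choice. The other lists were not chosen that way, and the order of the 3 medians was not tested. The called recombination genes had a median of 16.5 h, the signalling genes of 17 h and the Fanconi genes of 20 h. The latest were Fancd2, Fanca and Palb2, each at 23 h, and Ung came before all of them at 13 h. In Cycle 2 the median of the 19 was 23 h, with 18 h for replication and 25 h for mitosis, but 4 peaked at 26 h, the last hour the measure could take. From 15 to 18 h to 19 to 23 h the median log2 difference was -0.02 for the members, -0.13 for the replication list and 0.57 for the mitosis list.

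**Figure D5:**
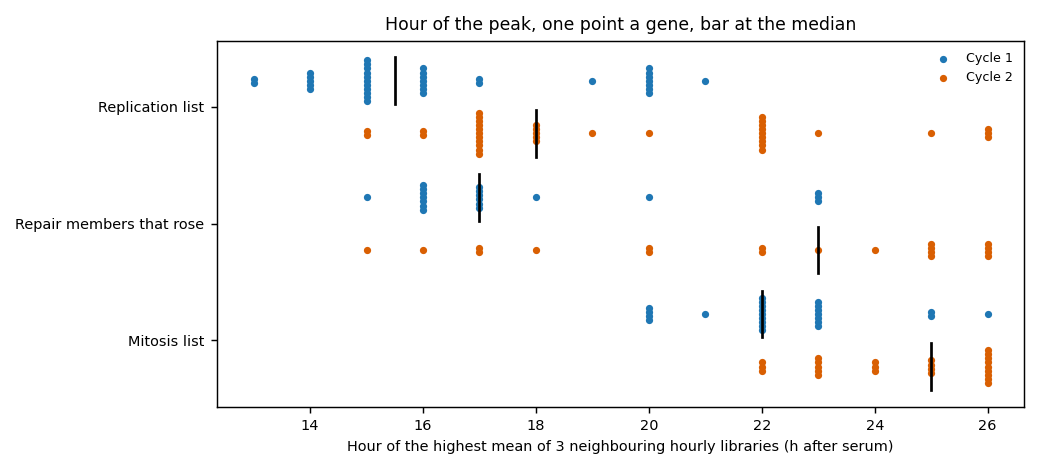
Hour after serum, between 10 and 26 h, at which the mean of 3 neighbouring hourly libraries was highest. There is 1 point a gene for 36 replication genes, the 19 repair genes that rose and 24 mitosis genes, with a bar at the median of each Cycle. In Cycle 1 (blue) the medians are 15.5 h for the replication list, 17 h for the repair genes and 22 h for the mitosis list. In Cycle 2 (orange) the peaks of the repair genes are spread over more hours. The 19 were chosen by their rise to 15 to 18 h, so their peak hours partly follow from that choice.

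Of a fixed list of 116 further repair genes, 27 were lower at 1 to 3 h than when starved (11.8% of all genes), with a median log2 difference of -0.62. At 4 to 10 h 12 were lower, where 17.9% of all genes were. Of the same list 20 rose from 4 to 10 h to 15 to 18 h (4.3% of all genes) and none fell (5.44%), with a median log2 difference of 0.43. Against starved, 13 were higher at 15 to 18 h (6.93% of all genes) and 4 lower (16.8%). The largest rises were those of Fen1, the flap nuclease (1.63), and the helicase gene Recql4 (1.54), and the largest fall that of the glycosylase gene Neil2 (-1.53). Of 36 replication genes 26 rose from 4 to 10 h to 15 to 18 h, as did 21 of 24 mitosis genes. Of 15 target genes of p53, the factor that damage signalling activates, none was called between these windows. Against starved at 15 to 18 h 1 was higher (6.93% of all genes) and 5 lower (16.8%). The largest differences were those of Gadd45a (-2.24), Trp53inp1 (-2.23) and Sesn1 (-1.62).

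Among the genes most like the mean course of the 19 members that rose were Pole (Pearson r = 0.99), Mms22l, Asf1b and Fam111a (each r = 0.98) over the 58 libraries of shared hours, which belong to the same time courses. Within the 43, the members that followed that mean least were Atrip (r = -0.01), Xpc (0.08), Xrcc5 (0.20), Xpa (0.23), Lig4 (0.33), Ercc1 (0.36) and Ddb2 (0.37), whereas Clspn (0.98), Rad51ap1 (0.97) and Blm (0.97) followed it most closely, each left out of the mean in turn. Per 1000 bases of annotated exons, the members ranged at 15 to 18 h in Cycle 1 from 1020 normalized counts for Apex1 and 630 for Ercc1 to 9.10 for Fancc and 9.03 for Prkdc. Clspn moved by the same measure from 21.0 when starved to 123, and Exo1 from 9.94 to 104.

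Cycle 1 alone was followed past 27 h. At 34 to 38 h 10 members lay above all 24 to 27 h libraries (13.3% of all genes) and 1 lay below (6.73% of all genes), with 5 libraries in each window and no replicate of the course. Brca1 had 300, 190, 264, 224 and 313 normalized counts from 24 to 27 h and 544, 498, 670, 593 and 550 from 34 to 38 h. Fancm went from a mean of 203 to 407 and Atm from 317 to 578 in the same windows. Ercc1, the one below, went from a mean of 1900 to 1007. Long genes were higher in these late libraries in general, since genes with over 5000 exon bases had a median log2 difference of 0.34 (0.30 in the 24 members of that length), against -0.16 for genes of up to 2500 bases (0.13 in 4 members), and the part of length in the late values was not tested. One library of this stretch, at 24.5 h of Cycle 1, stood apart, with 35.0 normalized counts of Rad54b and 2542 of Ercc1. It was left out of the fit of shared hours because its time was not shared by Cycle 2. It did stand as a sample in the fit of windows by Cycle and in that of Cycle 1 alone. Without the 24.5 h library, 10 members still lay above (15.6% of all genes) and 1 below (7.98% of all genes).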

How the data were processed

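RNA of MEFs was sequenced by the authors as single-end reads of stranded mRNA libraries, demultiplexed with CASAVA, aligned with STAR to mm9 and counted over exons of both strands with HOMER (versions not given in the sources used here). The deposited signal values are gene counts that the authors divided by a library factor, so columns sum to 8420657 to 8916718. Between 99.8% and 100% of low values, in genes whose values have at most 3 decimals, were whole multiples of 1 read (tolerance 0.1), from which reads were recovered. Of the 96 columns 95 matched a sample and 1 was not used. The values of 9 members have more decimals, as an average over several transcripts would give, but how they were made is not given in the sources used here. Because counting ignored strand, reads of overlapping genes cannot be told apart. This touches 13 members, of which Apex1, Atrip, Ddb2, Rad54l, Fanci and Fancl share 10% or more of their exon bases with another listed gene on NCBIM37 (GENCODE vM1).

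The values of starved libraries and of the 29 later times that both Cycles share were fitted on the log2(value + 1) scale with limma (version 3.58.1, R version 4.3.3). Hours were the groups and the Cycle was a term, which left 31 residual degrees of freedom. Windows are averages of hours. Differences between Cycles came from a fit of windows by Cycle, in which every library of a window stood as a sample. Fits of a Cycle alone did the same. With 1 course in each Cycle, these p-values rest on the spread of libraries within windows and not on that between courses. edgeR 4.0.16 on recovered reads was one of the alternatives, and the scripts were tested on simulated data. Levels by window use every library of a Cycle. The Cycle term follows the comparison of each course with its own starved cells. Members given in full were those with the largest differences of each function, with the least changed one, and the members and lists were chosen with earlier results of these data known. Promoters of Rad54b, Xrcc2, Exo1, Rad50, Nbn, Fancd2, Prkdc, Xpc and Ddb2 were not used here, and 1 gene with a course like that of the members is not reported here.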

Additional observations from a re-analysis of the deposited data

Results flagged for a closer look

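The effect of serum at 15 to 18 h against starved differed between the Cycles, by limma on windows and Cycles, in 21 members. The log2 difference of Cycle 2 minus Cycle 1 was negative for each: Exo1 (-2.710), Brip1 (-2.282), Blm (-2.212), Clspn (-2.163), Bard1 (-2.001), Rad51ap1 (-1.904), Brca1 (-1.850), Rad54b (-1.832), Fancd2 (-1.719), Palb2 (-1.636), Ercc1 (-1.626), Fancb (-1.484), Rad54l (-1.396), Xrcc2 (-1.367), Mre11a (-1.321), Fancm (-1.267), Topbp1 (-1.243), Fanca (-1.218), Ung (-1.216), Chek2 (-1.038) and Fanci (-1.031). The number of members whose effect against starved differed between the Cycles was 2 at 4 to 10 h (Ercc1 and Ung), or 4.65% of the members where 6.27% of all genes differed. It was 9 at 11 to 14 h (8.21% of all genes), 21 at 15 to 18 h (9.42%), 17 at 19 to 23 h (9.34%) and 13 at 24 to 27 h (11%).

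The rise from 4 to 10 h to 15 to 18 h, which uses no starved library, differed between the Cycles in 16 members, with the same sign. Cycle 2 minus Cycle 1 on the log2 scale was Fancd2 (-2.287), Fancb (-1.914), Brip1 (-1.894), Clspn (-1.880), Rad54b (-1.812), Rad51ap1 (-1.792), Brca1 (-1.740), Bard1 (-1.726), Exo1 (-1.625), Blm (-1.554), Palb2 (-1.420), Rad54l (-1.273), Rad51c (-1.271), Fancm (-1.208), Xrcc2 (-1.163) and Chek2 (-1.113). For Ercc1 and Ung, whose effect against starved differed, the difference of this rise did not pass the test (-0.29, adjusted p = 0.543, and 0.22, adjusted p = 0.792).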

How the results depend on the processing

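The count of members lower at 1 to 3 h (14) became 8 with a pseudocount of 10, and 5 with TMM rescaling, with median centring or with edgeR. Counts in this section are given without the share of all genes under the same setting. TMM moved the median of all genes by 0.22 at 1 to 3 h and 0.135 at 4 to 10 h, median centring by 0.182 at 1 to 3 h, and every other shift of a median was below 0.1. TMM gave 7 members higher at 24 to 27 h in place of 4. Without the replicate block, that is without the Cycle as a pairing term, 10 members were lower at 1 to 3 h, 3 were higher at 11 to 14 h and 5 at 15 to 18 h, and 19 rose from 4 to 10 h. As a check of this pairing, deviations from the hour means had a median correlation of 0.47 (lowest -0.20) over 406 pairs of hours. Without a minimum of the difference the counts higher and lower against starved were 1 and 34 at 1 to 3 h, 3 and 24 at 4 to 10 h, 9 and 6 at 11 to 14 h, 20 and 4 at 15 to 18 h, 19 and 5 at 19 to 23 h, and 18 and 5 at 24 to 27 h, with 38 rising from 4 to 10 h.

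Leaving out a Cycle or a starved library moved the counts most. Members higher ranged from 0 to 1 at 1 to 3 h, 1 to 2 at 4 to 10 h, 1 to 9 at 11 to 14 h, 1 to 21 at 15 to 18 h, 1 to 20 at 19 to 23 h and 0 to 17 at 24 to 27 h, and those rising from 4 to 10 h from 8 to 22. Members lower ranged from 4 to 18 at 1 to 3 h, 9 to 11 at 4 to 10 h, and 0 to 1 at 11 to 14 h, at 24 to 27 h and from 15 to 18 h to 19 to 23 h. From 11 to 14 h on, the fewest members were higher with Cycle 2 alone, and the 9, 21, 20 and 17 came from Cycle 1 alone. Without the 0 h library of Cycle 1, 2 members were higher at 19 to 23 h and 2 at 24 to 27 h. Without the -1 h library of Cycle 2 these were 9 and 7, and without its 0 h library 8 at 24 to 27 h. Blm at 15 to 18 h against starved reversed in Cycle 2 alone, to -0.103. Over the single calls of members and the alternatives, 878 values kept their call and direction, 113 lost the call and 1 reversed. The other scaling, pseudocount and filter settings kept each count within 1.5 times, and the causes were not tested.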

Other observations

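Rad51c differed between the Cycles in its rise but not by the test in its starved level (adjusted p = 0.93 by limma), which was 54.1 and 64.7 normalized counts in Cycle 1 and 58.2 and 69.2 in Cycle 2, and its median at 15 to 18 h was 109 in Cycle 1 and 64.2 in Cycle 2. Xrcc5, Xpc and Ddb2 had lower mean starved levels in Cycle 2 (235, 128 and 152 normalized counts) than in Cycle 1 (345, 195 and 189), and none of these differences was called (adjusted p = 0.101, 0.0528 and 0.363 by limma).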
